A study of Mus musculus with 6 samples.

Results

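Hearts of apoE-deficient mice given rosiglitazone were compared with hearts of untreated B6 mice on Affymetrix expression arrays. The comparison used 4 of the 6 arrays of the series, chosen by their group labels, and all 45037 probe sets that were not array controls. The 2 treated arrays carried RNA from hearts labelled as failing, of apoE-deficient mice on a B6 background that had received 30 mg/kg of rosiglitazone a day from the age of 6 months and were 8 months old when the hearts were taken, after 2 months on the drug. The 2 B6 arrays carried RNA from wild-type control hearts of the same age. The labels describe a shared chow with 7% fat and 0.15% cholesterol. The other 2 arrays, from 8-month-old apoE-deficient hearts without the drug, helped to estimate the spread between arrays, and their levels are given where they place a value. Treated and B6 mice differed in genotype and in drug, and only the treated hearts were labelled as failing. Effects of genotype, of rosiglitazone and of heart failure therefore cannot be told apart in this comparison. Whether a group's arrays came from different mice is not stated in the labels, and p-values then measure only the spread between arrays.

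Rosiglitazone is an antidiabetic thiazolidinedione that activates PPARγ, the nuclear receptor that drives fat cell differentiation and lipid storage. Apolipoprotein E carries lipid on lipoproteins and is the ligand by which remnants are cleared, and mice without it accumulate cholesterol in the blood. Heart muscle normally burns mostly fatty acids, taken up from lipoproteins and albumin and oxidized in mitochondria under the control of PPARα, while brown fat burns them to make heat through the uncoupling protein Ucp1.

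Levels are log2 values of the quantile-normalized signal plus a pseudocount of 11.1, so the lowest possible level is 3.47 and differences of dim genes are understated. Errors after ± are moderated standard errors of the fitted difference from limma, with 2 arrays a group. Their spread is pooled over all 6 arrays and drawn toward that of probe sets of similar level. They can therefore be smaller or larger than the scatter of a gene's own arrays. Adjusted p-values are from limma with the Benjamini-Hochberg method over all probe sets tested. The deposited signals were unequal between arrays, with 2%-trimmed means of 263 and 341 in the treated arrays against 149 and 175 in the B6 arrays. After normalization the treated arrays correlated with each other at 0.9869 and the B6 arrays at 0.9773 across probe sets, against 0.962 to 0.9656 between the groups. Of 27022 probe sets tested, 4066 (15%) passed an adjusted p of 0.05, 2017 higher (7.46%) and 2049 lower (7.58%) in treated hearts, so 49.6% of the calls were higher. The direction of small differences depended on the scaling of the arrays. With signals set equal on the hybridization controls 92.5% of 7604 calls were higher, and with array medians set equal 74.9% of 4187, with the median of all probe sets at 0.284 and 0.104 in place of -0.023. With 1 probe set per gene, 1162 of 13236 genes (8.78%) were higher and 1307 (9.87%) lower, with a median log2 difference of -0.026 over all genes. The number of arrays limited the precision. Fitted without letting the spread depend on level, the data gave 626 calls. Of the 202 passing genes named in the text, 83 lost their call there, among them Igha (2.77), Tent5c (-2.04), Adra1b (-1.22) and Kcnip2 (-0.92). At that setting 9 lipogenic, 8 liver X receptor target, 8 airway and 8 white adipocyte genes were still called higher, as were 6 matricellular, 5 each of macrophage, interferon and complement, 4 atrial, 2 chemokine and 1 endothelial. Of the lower calls, none was left in fatty acid oxidation, the respiratory chain or cytosolic heat shock genes, 1 in chaperones of the endoplasmic reticulum, and 2 each in branched-chain and potassium channel genes. With the trend kept, the tally of calls was 2192 without the second B6 array, 2289 without the first treated array, 2618 without the first B6 array and 2932 without the second treated array.

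**Figure D1:**
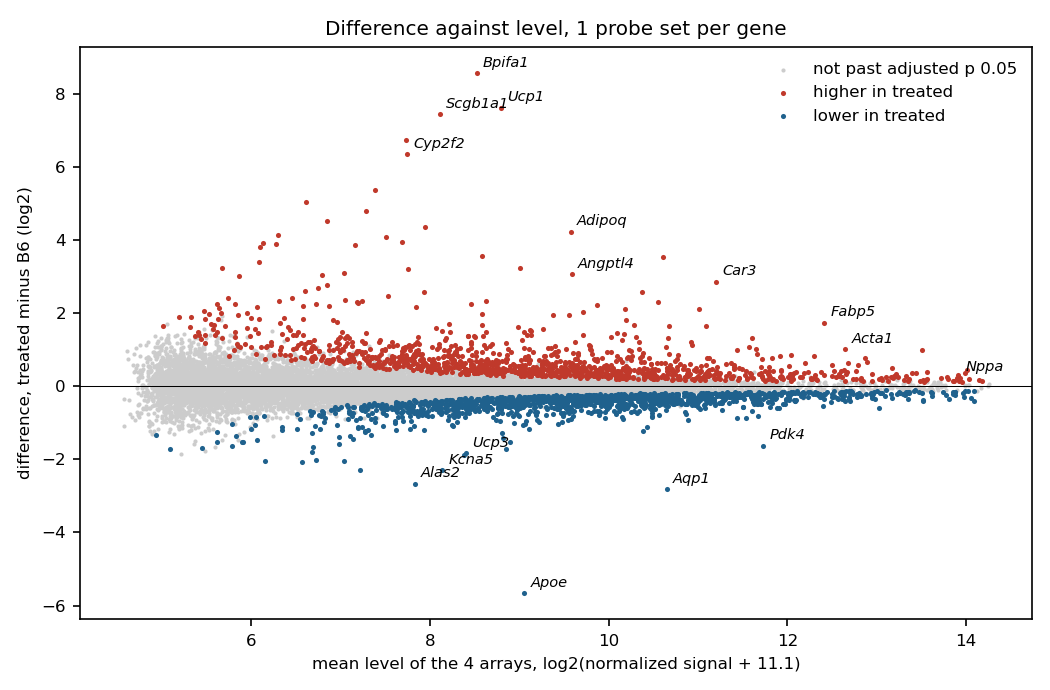
Difference between treated apoE-deficient and B6 hearts in log2 units (vertical axis) against the mean log2 level of the 4 arrays (horizontal axis) for 13236 genes, 1 probe set each. Red points were higher and blue points lower at an adjusted p under 0.05, and the largest differences were rises of genes dim in B6 hearts, with Apoe the only gene more than 8-fold lower.

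The larger differences ran mostly upward. Among the genes that passed, 241 were more than 2-fold higher and 62 more than 2-fold lower in treated hearts, and 28 against 1 differed by more than 8-fold. That 1 gene was Apoe, the targeted gene, at 6.20 and 6.25 in the treated arrays, 5.24 and 6.29 in the untreated apoE-deficient arrays and 11.91 and 11.86 in the B6 arrays. Apoe was lower by 5.66 ± 0.27 (adjusted p = 3.39e-06), and its levels in all 4 apoE-deficient arrays lay far below both B6 arrays, as the genotype labels state.

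The 15 genes with the largest rises included several airway and several fat cell genes. Bpifa1, a protein secreted by the lining of nose and airways, stood at 12.80 and 12.82 in the treated arrays and 4.14 and 4.33 in the B6 arrays, a difference of 8.57 ± 0.25 (adjusted p = 1.61e-07). Ucp1, the uncoupling protein of brown fat, stood at 12.60 and 12.61 against 5.74 and 4.22 and rose by 7.62 ± 0.39 (adjusted p = 4.82e-06). Treated and B6 arrays did not overlap for 8126 of the 13236 genes (61.4%). The genes ranked here were chosen among passing genes without overlap, so their lack of overlap follows from that choice. Bpifa1 was near the bottom of the scale in both B6 arrays, while Ucp1 was dim in both but differed between them. Bpifa1 and Ucp1 were among bright signals in treated hearts, with a gap between groups far larger than that between arrays. The club cell secretoglobins Scgb1a1, Scgb3a2 and Scgb3a1 rose by 7.45 ± 0.36, 6.74 ± 0.42 and 4.37 ± 0.20, and Cyp2f2, the cytochrome P450 of club cells, by 6.36 ± 0.26. The antimicrobial lectin Reg3g rose by 5.04 ± 0.29 and the airway protein Bpifb1 by 3.91 ± 0.33. The remaining genes among the 15 largest rises were Tmem45b (5.36), the peroxisomal thiolase Acaa1b (4.79), the immunoglobulin light chain segment Igkv8-30 (4.52), the adipocyte hormone adiponectin Adipoq (4.23), the very long chain acyl-CoA synthetase Slc27a2 (4.13), the protein kinase A subunit Prkar2b (4.09) and the lipid droplet protein Cidec (3.93). Each of these 15 genes kept its call when any 1 array was left out and under every other alternative in which it was tested, while Reg3g, Bpifb1 and Slc27a2 were too dim for the filter at the 60th percentile.

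The largest falls were smaller in size and came from genes of varied roles. Aqp1, the water channel of capillary endothelium and red cells, stood at 9.29 and 9.21 in the treated arrays and 12.05 and 12.06 in the B6 arrays, a fall of 2.80 ± 0.05 log2 units (adjusted p = 1.82e-08). Alas2, the heme synthesis enzyme of red cell precursors, and the beta globin Hbb-b2 were at -2.66 ± 0.18 and -2.06 ± 0.23, although another probe set of Hbb-b2, at -0.62, did not pass. Kcna5, the potassium channel Kv1.5, fell by 2.29 ± 0.10 and the acyl-CoA thioesterase Acot1 by 2.02 ± 0.17. Ramp1, a subunit of the receptor for calcitonin gene-related peptide, fell by 1.89 ± 0.10, the uncoupling protein Ucp3 by 1.83 ± 0.15, the endothelial protocadherin Pcdh12 by 1.79 ± 0.17 and the metalloproteinase inhibitor Timp4 by 1.72 ± 0.08. Wdfy1 and Tent5c also fell, by 2.29 ± 0.15 and 2.04 ± 0.28. Serf1 (-2.05) and the transcription factor Atoh8 (-1.70) lost their calls without the first B6 array (-1.52 and -1.5). Serf1 also lost its call when its probe sets were averaged (-0.49). The protease Ctrc (-1.71) lost its call without the second treated array (-1.30) and without either B6 array (-1.69 and -1.73). Probe sets of globin, immunoglobulin, Acaa1b and Acot1 may also bind close relatives of these genes, so their values are uncertain as to the member.

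**Figure D2:**
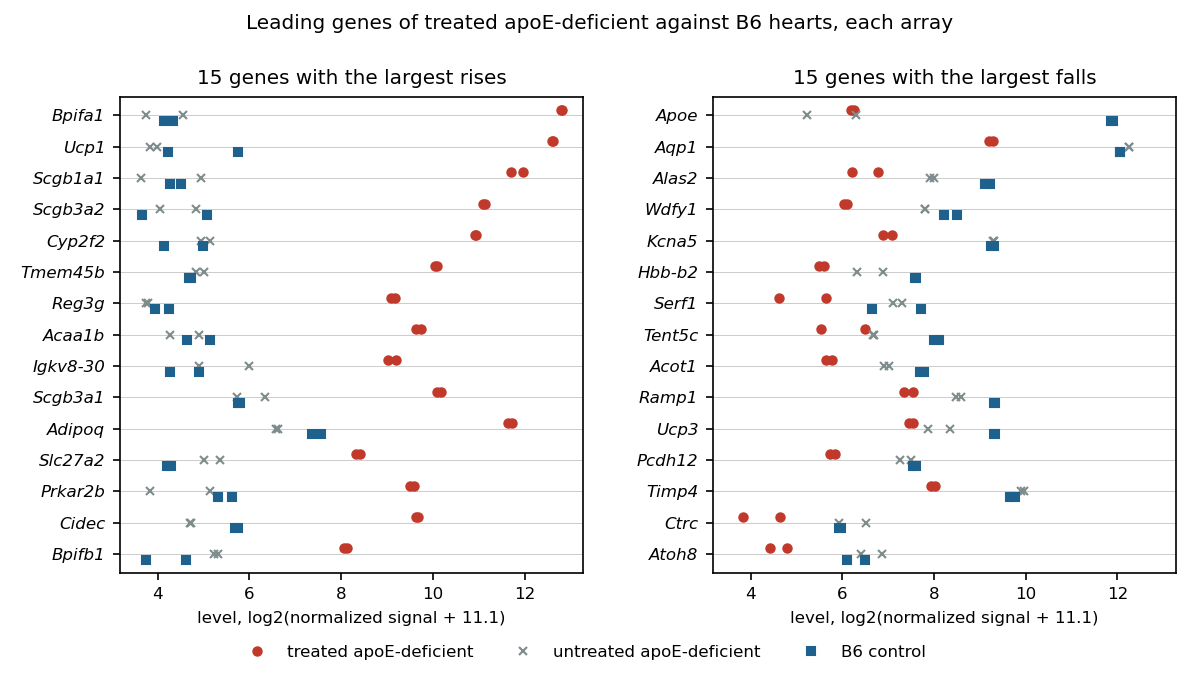
Log2 level (horizontal axis) in each array for the 15 genes with the largest rises (left) and the 15 with the largest falls (right). Red circles are treated apoE-deficient, grey crosses untreated apoE-deficient and blue squares B6 arrays, 2 arrays a group. Only passing genes whose treated and B6 arrays do not overlap were ranked.

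**Figure D3:**
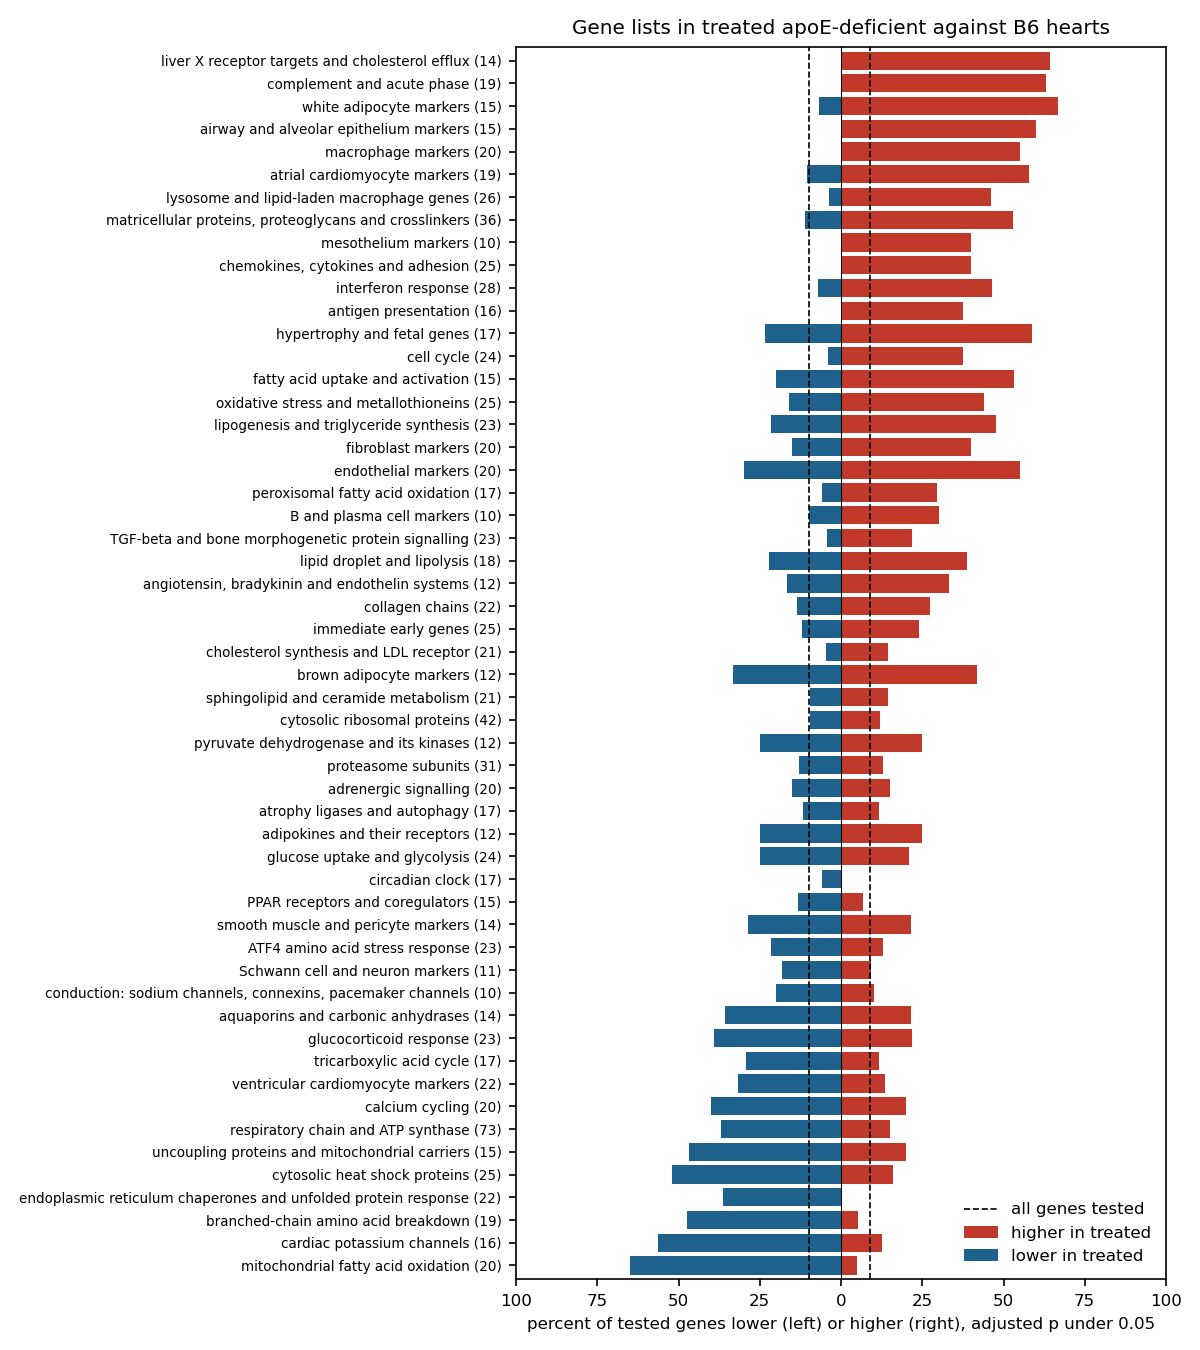
Percent of tested genes higher (right, red) or lower (left, blue) in treated apoE-deficient than in B6 hearts for each gene list with at least 10 tested genes, whose number is in brackets. Dashed lines mark the 8.78% higher and 9.87% lower of all 13236 genes, and the liver X receptor target and complement lists have no lower genes.

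Markers of cell types other than heart muscle were counted over lists. Of 20 airway and lung epithelium markers on the array, 15 were bright enough to be tested. Of these 15, 9 were higher and none lower, with a median difference of 3.89. The filter on dim probe sets used the mean of all 6 arrays. A marker such as Bpifa1, below 4.99 in every B6 and untreated apoE-deficient array, was therefore tested only through its level in the treated arrays. The count and median of this list partly reflect that filter. The summed level of that list was 14.06 and 14.14 in the treated arrays against 7.97 and 8.51 in the B6 arrays. The alveolar surfactant genes Sftpc and Sftpb, at 0.86 ± 0.33 and 0.04 ± 0.49, did not pass, nor did the ciliated cell regulator Foxj1 (1.10 ± 0.61). Sftpc was called higher with hybridization controls set equal (1.16). Of 15 white adipocyte markers, 10 were higher and 1 lower (median 1.08), and the summed level was 15.16 and 15.18 against 14.01 and 14.06. Of 12 brown adipocyte markers, 5 were higher and 4 lower (median 0.47). The brightness filter bears on this list too. With the filter at the 60th percentile 10 were tested, 4 higher and 4 lower, with a median of 0.016. Of 22 ventricular muscle markers, 3 were higher and 7 lower, and their summed level was 18.02 and 18.06 against 18.10 and 18.11. The other scalings called 17 to 19 of the 22 lower. In whole tissue, fewer cells of a type and less RNA per cell cannot be told apart, and the part of the airway and adipocyte transcripts in the lipid and immune results below was not tested.

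Fat cell genes included storage, hormone and heat genes. Adiponectin stood at 11.65 and 11.73 in the treated arrays, 6.58 and 6.62 in the untreated apoE-deficient arrays and 7.56 and 7.36 in the B6 arrays. Car3, the carbonic anhydrase abundant in fat and slow muscle, stood at 12.63 and 12.64 against 9.75 and 9.80 and rose by 2.86 ± 0.06 (adjusted p = 2.83e-08). Cidea, a lipid droplet protein of brown fat that is also made in heart, stood at 12.05 and 12.08 against 9.95 and 9.95 and rose by 2.12 ± 0.05. For all 3 genes the treated arrays lay above every other array. Pck1, which supplies glycerol for triglyceride, rose by 3.10 ± 0.23, the fatty acid elongase Elovl3 by 3.86 ± 0.30, the proton channel Otop1 by 3.82 ± 0.42 and the deiodinase Dio2 by 1.40 ± 0.20. The hormone resistin Retn (2.18) lost its call without the first treated array (2.04). The brown adipocyte markers that fell are also heart genes: the droplet coat protein Plin5 by 0.65 ± 0.05, the coactivator Ppargc1a by 0.53 ± 0.07, the transcription factor Prdm16 by 0.52 ± 0.15 and the potassium channel Kcnk3 by 0.20 ± 0.04. That count of 4 was 3 without the second treated array and 2 without any 1 of the other 3 arrays compared. Prdm16 lost its call under each of the other scalings and without any 1 of these arrays (-0.65 to -0.40). Kcnk3 lost its call without the first treated array (-0.18) or either B6 array (-0.20 each) and was at 0.07 with hybridization controls set equal. Ppargc1a lost its call at that scaling (-0.22), and its 4 other probe sets, at -0.20 to 0.18, did not pass.

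Genes of fatty acid uptake moved in both directions, with larger rises than falls. Fabp5, a fatty acid binding protein of endothelium, fat and macrophages, stood at 13.32 and 13.24 in the treated arrays and 11.53 and 11.55 in the B6 arrays, a rise of 1.74 ± 0.04 (adjusted p = 7.29e-08). Angptl4, a secreted inhibitor of lipoprotein lipase induced by PPARs, stood at 11.28 and 10.96 against 7.95 and 8.15 and at 5.89 and 6.59 in untreated apoE-deficient arrays. Angptl4 was higher by 3.07 ± 0.21 (adjusted p = 2.57e-05), with untreated apoE-deficient arrays below both B6 arrays. Of 15 genes of uptake and activation tested, 8 were higher and 3 lower, with a median of 0.41. Fabp4 and Gpihbp1, which holds lipoprotein lipase on capillaries, rose by 0.98 ± 0.05 and 0.98 ± 0.05. The transporter Slc27a1 fell by 0.80 ± 0.07 and the lipoprotein receptor Vldlr by 0.37 ± 0.04. The lipase itself, Lpl, was called lower by only 0.12 ± 0.03, at 13.96 and 13.98 against 14.10 and 14.07, and lost the call without either B6 array (-0.10 and -0.13), while the other scalings put it at -0.86 to -0.54. Cd36, the main fatty acid transporter of heart, was called higher by 0.23 ± 0.04, but was at -0.22 with trimmed means set equal and -0.04 with array medians set equal. Pparg, the receptor of the drug, was higher by 0.78 ± 0.17 (adjusted p = 0.016), a call lost without the first treated array (0.68) or the second B6 array (0.63).

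Fatty acid and triglyceride synthesis genes were higher in the main. Scd1, the stearoyl-CoA desaturase of fat and liver, stood at 11.67 and 11.73 in the treated arrays and 9.32 and 9.49 in the B6 arrays, a rise of 2.29 ± 0.07 (adjusted p = 2.84e-07). Of 23 such genes tested, 11 were higher and 5 lower, with a median of 0.77 against -0.026 over all genes, and 16 and 2 with hybridization controls set equal. Scd2 rose by 2.03 ± 0.08, the glycerol phosphate dehydrogenase Gpd1 by 2.11 ± 0.10, fatty acid synthase Fasn by 1.40 ± 0.07, acetyl-CoA carboxylase Acaca by 1.15 ± 0.12 and the acyltransferase Agpat2 by 1.14 ± 0.07. The members that fell were the mitochondrial acyltransferase Gpam (-0.49), the diglyceride acyltransferase Dgat2 (-0.39), the muscle carboxylase Acacb (-0.36), malic enzyme Me1 (-0.24) and the acyltransferase Agpat3 (-0.19). The list median was 0.65 to 0.87 when 1 of the 4 arrays compared was left out. Agpat3 lost its call without any 1 array (-0.22 to -0.16) and Me1 without the second treated array or either B6 array (-0.25 to -0.21). Both were above 0 with hybridization controls set equal, at 0.11 and 0.05, and Acacb lost its call there (-0.10).

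Coat proteins and lipases of lipid droplets were split. Plin2, the droplet coat protein of many tissues, stood at 11.48 and 11.56 in the treated arrays and 10.28 and 10.34 in the B6 arrays and rose by 1.21 ± 0.05. Plin5, the coat protein of oxidative muscle, stood at 10.33 and 10.30 against 11.00 and 10.93 and fell by 0.65 ± 0.05. The groups did not overlap for either gene. Of 18 droplet genes tested, 7 were higher and 4 lower, against 12 and 3 with hybridization controls set equal. The lipases Mgll and Lipe rose by 1.33 ± 0.07 and 0.94 ± 0.10, while Plin4 and Fitm1, a protein of muscle lipid droplets, fell by 0.57 ± 0.06 and 0.52 ± 0.07.

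Targets of the liver X receptors, which sense oxidized cholesterol and drive its export, were higher as a group. Abca1, the pump that loads cholesterol onto apolipoprotein A-I, stood at 11.11 and 11.13 in the treated arrays, 10.00 and 10.16 in the untreated apoE-deficient arrays and 9.47 and 9.44 in the B6 arrays. The treated arrays were highest, the B6 arrays lowest and no 2 groups overlapped, and Abca1 was 1.66 ± 0.07 higher than in B6 hearts (adjusted p = 1.31e-06). Of 14 such genes tested, 9 were higher and none lower, with a median of 0.91. That count was 9 without any 1 array and 10 or 11 under the other scalings. The exporter Abcg1 rose by 1.37 ± 0.10, the phospholipid transfer protein Pltp by 0.87 ± 0.06, the ligase Mylip, which degrades the LDL receptor, by 0.98 ± 0.07, the lipogenic transcription factor Srebf1 by 0.95 ± 0.07 and the HDL receptor Scarb1 by 1.11 ± 0.08. Apoc1, a neighbour of Apoe in the genome, rose by 2.37 ± 0.21, and Cd5l, a protein secreted by macrophages, by 3.02 ± 0.38. The receptor gene Nr1h3, at 0.46 ± 0.15, did not pass, though it was called higher under the other scalings (0.51 to 0.81). Of 21 genes of cholesterol synthesis and the LDL receptor, 3 were higher and 1, the squalene synthase Fdft1, lower by 0.60 ± 0.07, with a median of 0.20. The higher count there was 8 with hybridization controls set equal, where the median was 0.56, and 3 under the other scalings.

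Enzymes of mitochondrial fatty acid oxidation were lower, by small amounts. Eci1, which isomerizes unsaturated acyl-CoA, stood at 12.11 and 12.14 in the treated arrays and 12.68 and 12.66 in the B6 arrays and fell by 0.54 ± 0.04 (adjusted p = 2.53e-05). Cpt2, the inner membrane carnitine transferase, stood at 11.72 and 11.73 against 12.23 and 12.20 and fell by 0.49 ± 0.04, although its other probe set was at 0.20. Untreated apoE-deficient arrays were at 12.63 and 12.58 for Eci1 and 12.10 and 12.12 for Cpt2, between the groups and close to B6. Of 20 enzymes tested, 13 were lower and 1 higher, with a median of -0.22, and leaving out 1 of the 4 arrays gave 9 to 13 lower. Decr1, Acaa2 and Hadha fell by 0.43 ± 0.04, 0.33 ± 0.04 and 0.32 ± 0.04. The medium-chain dehydrogenase Acadm was the 1 called higher (0.17), but was at -0.43, -0.25 and -0.11 under the 3 other scalings. The group stayed lower under every scaling, with 18 of 20 called lower at equal trimmed means, 14 at equal array medians and 10 at equal hybridization controls. Its medians there were -0.52, -0.34 and -0.21. Those falls were not particular to this list. In the same order the medians were -0.64, -0.47 and -0.33 for ventricular markers and -0.59, -0.41 and -0.27 for respiratory chain subunits. After quantile normalization those 2 lists were at -0.06 and -0.07.

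Pdk4, Ucp3 and Acot1, known targets of PPARα in heart muscle, fell by more than 1 log2 unit. They do not stand for all genes that PPARs induce, since Angptl4, described above, was higher. Pdk4, the kinase that shuts off pyruvate dehydrogenase, stood at 10.88 and 10.96 in the treated arrays, 11.49 and 11.50 in the untreated apoE-deficient arrays and 12.54 and 12.55 in the B6 arrays. Pdk4 fell by 1.62 ± 0.04 (adjusted p = 1.08e-07), with the 3 groups in separate steps. Ucp3, the uncoupling protein of muscle, stood at 7.53 and 7.45, 8.36 and 7.86 and 9.31 and 9.33 in the same order of groups and fell by 1.83 ± 0.15 (adjusted p = 8.23e-05). Acot1, which splits acyl-CoA in the cytosol, stood at 5.78 and 5.65, 7.03 and 6.91 and 7.78 and 7.69, and its mitochondrial relative Acot2 fell by 0.63 ± 0.06. For these genes the treated arrays were lowest and the B6 arrays highest, with untreated apoE-deficient arrays between. Bdh1, the ketone body dehydrogenase, went the other way, at 11.91 and 11.91 against 10.26 and 10.28, a rise of 1.64 ± 0.04 (adjusted p = 1.1e-07). Of the pyruvate dehydrogenase subunits and kinases tested, 3 of 12 were higher and 3 lower (none and 5 with trimmed means set equal, 4 and 2 with hybridization controls), the falls being Pdk4, Pdk2 (-0.29) and Pdk1 (-0.24). With hybridization controls set equal Pdk2 and Pdk1 were at -0.05 and 0.06 with no call, and Pdk1 also lost its call without the first treated array (-0.20) or the second B6 array (-0.19).

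Several amino acid and carrier genes of mitochondria fell too. Ivd, which oxidizes the leucine product isovaleryl-CoA, stood at 10.99 and 11.01 in the treated arrays and 11.90 and 11.86 in the B6 arrays and fell by 0.88 ± 0.04 (adjusted p = 3.39e-06). Bckdha, a subunit of the branched-chain ketoacid dehydrogenase, fell by 0.60 ± 0.04. The phosphatase of that enzyme, Ppm1k, fell by 0.52 ± 0.06, without a call when hybridization controls were set equal (-0.23). Of 19 branched-chain genes tested, 9 were lower and 1, Hibch (0.20), higher, with a median of -0.24. Hibch lost its call without any 1 of the 4 arrays (0.17 to 0.24). The 9 falls were 5 without the second B6 array and 3 with signals set equal on the hybridization controls, where the median was 0.03. Of 15 uncoupling proteins and mitochondrial carriers tested, 7 were lower and 3 higher. The lower count was 5 without either B6 array, and the other scalings gave 6 to 10 lower and 1 to 3 higher. The carrier Slc25a34 stood at 9.72 and 9.85 against 10.98 and 11.01 and fell by 1.21 ± 0.06 (adjusted p = 3.63e-06), with the glutamate carrier Slc25a22 (-0.84) and the pyrimidine carrier Slc25a33 (-0.74). Slc25a22 lost its call without the second B6 array (-0.75).

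Respiratory chain subunits gave no stable count. Of 73 subunits tested, 27 were called lower and 11 higher, with a median of -0.07, and differences ran from -0.39 for the complex I subunit Ndufa13 to 0.45 for cytochrome c, Cycs, which was at -0.23 with trimmed means and -0.05 with array medians set equal. With trimmed means set equal 67 were lower, with array medians 62 and with hybridization controls 47, and without the second B6 array the counts were 12 lower and 5 higher. Among the brightest 10% of probe sets the median difference was -0.047 after quantile normalization and -0.161 with trimmed means set equal, against 0.153 with hybridization controls.

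**Figure D4:**
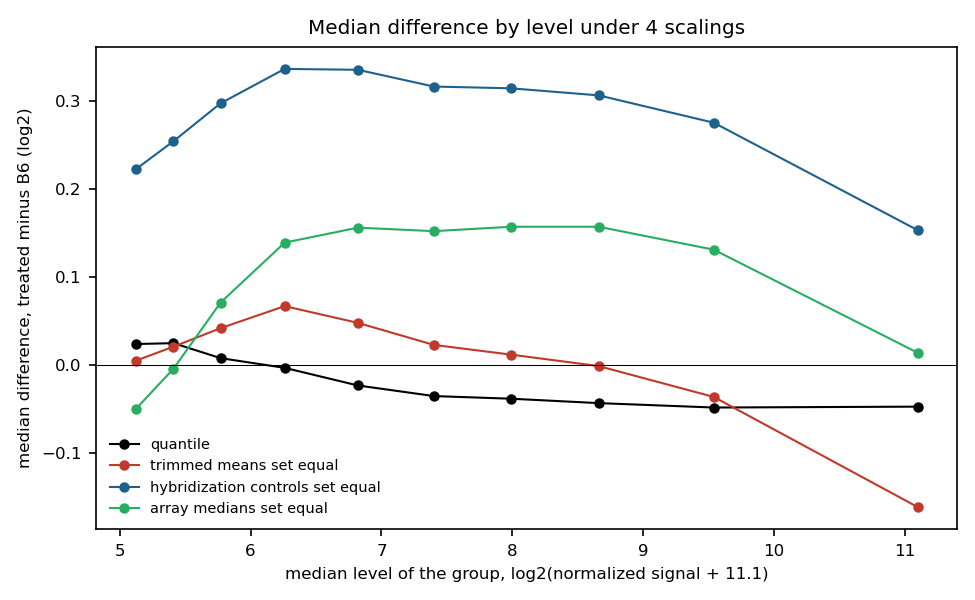
Median log2 difference between treated apoE-deficient and B6 hearts (vertical axis) for 10 groups of equal size of the 27022 probe sets ordered by level (horizontal axis, log2), under the 4 scalings tried. The brightest group lies at -0.161 with trimmed means set equal and at 0.153 with hybridization controls set equal.

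Of 24 genes of glucose uptake and glycolysis tested, 5 were higher and 6 lower. That balance depended on the scaling, with 4 higher and 11 lower at equal trimmed means and 8 higher and 5 lower at equal hybridization controls. The mutase Pgam1 rose by 0.75 ± 0.06 and the glucose transporter Slc2a1 by 0.60 ± 0.09, while the insulin-regulated transporter Slc2a4, at 0.02 ± 0.04, did not pass on its brightest probe set and was lower on the other (-0.42). Pfkfb3, which makes the activator of phosphofructokinase, was at 1.82 ± 0.20 on its brighter probe set and -0.01 on the other. The glycogen phosphorylases Pygb and Pygm fell by 0.40 ± 0.05 and 0.31 ± 0.05. In peroxisomes, which shorten very long fatty acids, 5 of 17 genes were higher and 1 lower, and the 5 were 3 without any 1 of the 4 arrays and 10 with hybridization controls set equal. The bifunctional enzymes Hsd17b4 and Ehhadh were at 0.63 ± 0.07 and 0.88 ± 0.16, of which Ehhadh lost its call without the second treated array (0.80) and another probe set of Hsd17b4 was at 0.03.

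**Figure D5:**
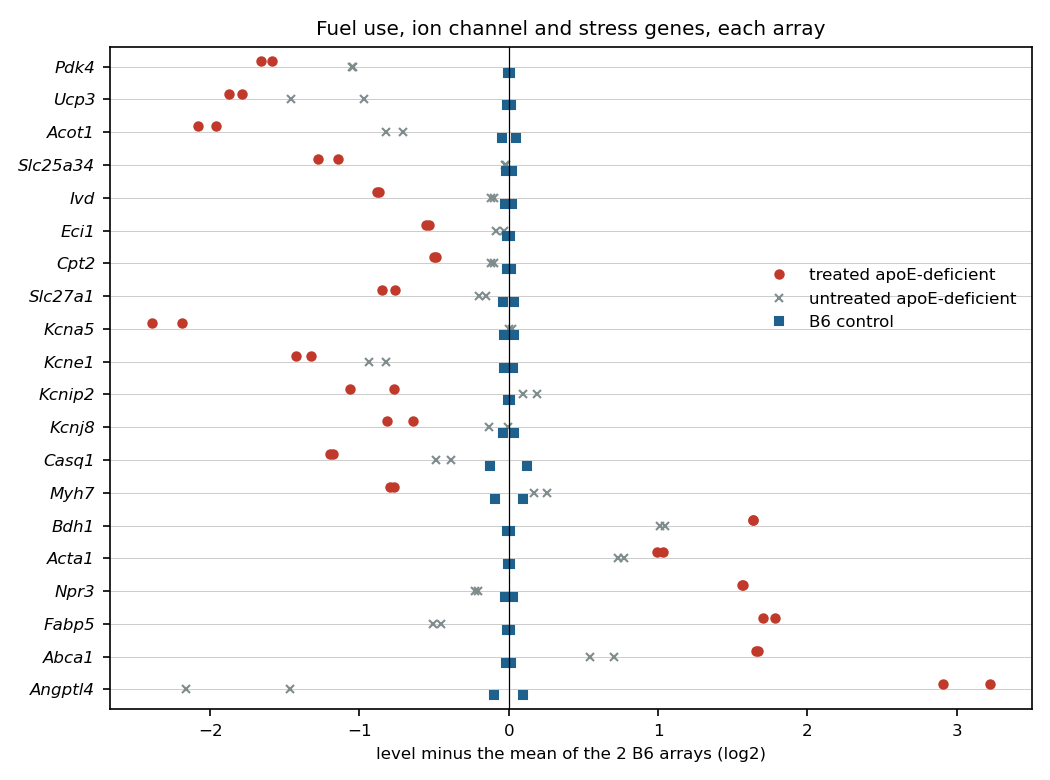
Log2 level minus the mean of the 2 B6 arrays (horizontal axis) for 20 fuel, ion channel and stress genes. Red circles are treated apoE-deficient, grey crosses untreated apoE-deficient and blue squares B6 arrays, and Pdk4, Ucp3 and Acot1 show the 3 groups in separate steps.

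Potassium channel genes, which set the repolarization of the heartbeat, were mostly lower. Kcna5 stood at 6.89 and 7.09 in the treated arrays, 9.28 and 9.30 in the untreated apoE-deficient arrays and 9.31 and 9.24 in the B6 arrays, so the treated arrays stood apart from both other groups (adjusted p = 2.2e-06 against B6). Kcnip2, the partner of the transient outward channel, stood at 10.28 and 10.58 against 11.34 and 11.36 and fell by 0.92 ± 0.09. Kcne1, the partner of the slow delayed rectifier, stood at 6.24 and 6.34 against 7.70 and 7.64 and fell by 1.38 ± 0.17. Of 16 channel genes tested, 9 were lower and 2 higher, with a median of -0.29. With hybridization controls or array medians set equal the lower count was 4, and the median with hybridization controls was 0.05. Kcnj8, a subunit of the ATP-sensitive channel of vessels, fell by 0.73 ± 0.09, and the atrial channel subunit Kcnj3 rose by 0.75 ± 0.10. The other member called higher, Kcnk1 (1.66), lost its call without either treated array (1.59 and 1.73) or without the second B6 array (1.39).

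The main calcium handling components differed little after quantile normalization, but the size and sign of their differences depended on the scaling. The calcium pump Atp2a2 was called lower by 0.17 ± 0.04, at 13.85 and 13.90 against 14.01 and 14.09, and lost the call without the second B6 array (-0.13), while the other scalings put it at -0.87 to -0.56. Its inhibitor phospholamban, Pln, was called higher by 0.15 ± 0.03 but was lower under the 3 other scalings (-0.55 to -0.24). The release channel Ryr2 was at 0.01 ± 0.03 and did not pass, though it was called lower with trimmed means set equal (-0.27). Casq1, the skeletal calsequestrin, fell by 1.19 ± 0.12, the junction protein Jph2 by 0.50 ± 0.06 and the histidine-rich calcium binding protein Hrc by 0.36 ± 0.04. Sln, the atrial regulator of the pump, rose by 0.83 ± 0.06, without a call when its 2 probe sets were averaged (0.62). Of 20 such genes 8 were lower and 4 higher, with 5 lower without the second B6 array. The scalings gave 12 lower and 2 higher at equal trimmed means and 5 lower and 6 higher at equal hybridization controls.

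Genes that mark a loaded heart did not move together. Acta1, the skeletal actin of the fetal heart, stood at 13.14 and 13.18 in the treated arrays, 12.87 and 12.92 in the untreated apoE-deficient arrays and 12.15 and 12.14 in the B6 arrays, a rise of 1.01 ± 0.04 (adjusted p = 4.98e-07). Myh7, the slow myosin heavy chain, stood at 10.16 and 10.18, 11.12 and 11.21 and 11.05 and 10.86 in the same order and fell by 0.78 ± 0.07 (adjusted p = 0.000114). Acta1 was thus above B6 in all 4 apoE-deficient arrays, and Myh7 was below B6 in the treated arrays alone of the 2 apoE-deficient groups. The natriuretic peptide Nppb stood at 12.81 and 12.89 against 12.38 and 12.44 and was higher by 0.44 ± 0.04, without a call when trimmed means were set equal (0.15). Nppa, the atrial peptide, was called higher by 0.24 ± 0.03 but lower under the 3 other scalings (-0.48 to -0.17). The adult myosin Myh6, at -0.04 ± 0.03, did not pass, though it was called lower under the other scalings. Of 17 hypertrophy genes, 10 were higher and 4 lower, with a median of 0.24 that was -0.03 with trimmed means set equal, where 7 were higher and 8 lower. Fhl1 and Mybphl rose by 0.78 ± 0.08 and 0.95 ± 0.10, while the cardiac transcription factor Gata4 fell by 0.54 ± 0.06.

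Atrial genes were higher than in B6 hearts. Myl4, the atrial light chain, stood at 13.20 and 13.24 in the treated arrays, 11.56 and 11.59 in the untreated apoE-deficient arrays and 12.52 and 12.58 in the B6 arrays, a rise of 0.66 ± 0.04 that lost its call when its 2 probe sets were averaged (0.62). Of 19 atrial markers tested, 11 were higher and 2, Kcna5 and Kcnj5 (-0.29), lower, with a median of 0.27. The summed level of the list was 16.21 in both treated arrays against 15.81 and 15.82 in the B6 arrays, and the share of atrium in each sample was not tested. Kcnj5 lost its call without any 1 of the 4 arrays (-0.30 to -0.28) and under the other scalings, where it was at -0.25 to 0.06. Dkk3 rose by 1.02 ± 0.07. The atrial light chain Myl7 was higher by 0.51 ± 0.03 but at 0.04, with no call, when trimmed means were set equal, where the list's higher count was 7.

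Of 12 genes of the angiotensin, bradykinin and endothelin systems tested, 4 were higher and 2 lower, with a median of 0.06. Of 20 adrenergic signalling genes, 3 were higher and 3 lower, with a median of -0.002, but 13 were higher and 1 lower with hybridization controls set equal. The adrenergic counts were 2 and 2 without the first treated array or the second B6 array, and the higher count was 2 without the first B6 array. Ednrb, the endothelin B receptor, stood at 10.54 and 10.53 in the treated arrays and 8.64 and 8.51 in the B6 arrays, and Npr3, the clearance receptor of natriuretic peptides, at 10.05 and 10.05 against 8.46 and 8.51. They rose by 1.96 ± 0.08 and 1.57 ± 0.08 (adjusted p = 1.31e-06 and 3.91e-06), with groups far apart. The phosphodiesterase Pde3b, abundant in fat, rose by 1.5 ± 0.16 and the receptor kinase Grk5 by 0.71 ± 0.08. The alpha adrenergic receptor Adra1b fell by 1.22 ± 0.20, the protease Corin, which processes natriuretic peptides, by 0.51 ± 0.06, and the angiotensin receptor Agtr1a by 0.44 ± 0.07. Agtr1a lost its call with hybridization controls (-0.12) or array medians (-0.27) set equal. Aplnr, the apelin receptor, fell by 1.17 ± 0.10, while its other probe set, at -0.87, did not pass.

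Matrix genes of repair were higher, with Timp4 the main exception. Postn, the matricellular protein of activated fibroblasts, stood at 10.95 and 10.83 in the treated arrays and 9.42 and 9.48 in the B6 arrays, a rise of 1.44 ± 0.07 (adjusted p = 3.41e-06). Timp4 stood at 7.94 and 8.03 against 9.76 and 9.66 (adjusted p = 2.98e-06). Both genes were well separated between groups in opposite directions. Of 36 matricellular proteins, proteoglycans and crosslinkers tested, 19 were higher and 4 lower, with a median of 0.47. Leaving out 1 of the 4 arrays gave 13 to 17 higher. Cilp rose by 1.47 ± 0.09, fibronectin Fn1 by 0.94 ± 0.07, biglycan Bgn by 0.84 ± 0.04, Sparc by 0.63 ± 0.04 and the connective tissue growth factor Ccn2 by 0.49 ± 0.05. The other members that fell were osteoglycin Ogn (-0.39), lumican Lum (-0.28) and the collagen chaperone Serpinh1 (-0.15), all without a call when hybridization controls were set equal (-0.14, -0.03 and 0.09). Lum also lost its call without the first treated array or either B6 array (-0.29 to -0.21), and Serpinh1 without any 1 array (-0.16 to -0.13).

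The fibrillar collagens themselves moved little. Col1a1 and Col3a1 were at 0.31 ± 0.06 and 0.15 ± 0.04. Col3a1 lost its call without any 1 of the 4 arrays (0.15 each) and with trimmed means set equal (0.02), and Col1a1 lost its call without the second B6 array (0.31) and as the mean of its probe sets (0.13). Col8a1, a short-chain collagen of vessels, and Col18a1, the source of endostatin, rose by 1.41 ± 0.10 and 1.12 ± 0.14. The basement membrane chain Col4a1 fell by 0.36 ± 0.04, a call lost with hybridization controls set equal (-0.14). Of 22 chains tested, 6 were higher and 3 lower, against 13 and none with hybridization controls and 10 and 1 with array medians set equal. The rises were 3 without the first treated array or the second B6 array, and the falls were 1 without the same arrays. Of 14 smooth muscle and pericyte markers tested, 3 were higher and 4 lower, with a median of -0.02, and 7 were higher and 4 lower with hybridization controls set equal. The higher members were the contractile genes Acta2 (0.64 ± 0.07), Tagln (0.88 ± 0.08) and Cnn1 (1.13 ± 0.14), and the lower ones included Kcnj8, Abcc9 (-0.40) and Rgs5 (-0.30).

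Endothelial markers were called in both directions, with Aqp1 far below the rest. Cldn5, the tight junction protein of vessels, stood at 9.73 and 9.84 in the treated arrays and 8.27 and 8.52 in the B6 arrays and rose by 1.39 ± 0.12 (adjusted p = 8.45e-05). Aqp1 was at 12.25 and 12.25 in the untreated apoE-deficient arrays, slightly above B6, so its low level among apoE-deficient arrays was seen in the treated ones. Of 20 endothelial markers tested, 11 were higher and 6 lower, but 13 and 1 with hybridization controls and 12 and 1 with array medians set equal. Leaving out the second B6 array gave 5 and 2, and the first treated array 8 and 1. Kdr, Vwf and Plvap were higher by 0.44 ± 0.06, 0.52 ± 0.07 and 0.66 ± 0.12. Of the falls besides Aqp1, Tie1 (-0.47) lost its call without the first treated array (-0.41), and Flt1 (-0.42) without that array (-0.34) or the second B6 array (-0.28). Both also lost their calls with hybridization controls (-0.12 and -0.08) or array medians (-0.27 and -0.23) set equal.

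Macrophage and lysosome genes were higher. Lgals3, the galectin of activated macrophages, stood at 9.58 and 9.59 in the treated arrays, 7.69 and 7.84 in the untreated apoE-deficient arrays and 7.42 and 7.24 in the B6 arrays, a rise of 2.26 ± 0.11 (adjusted p = 3.86e-06). Gpnmb, a marker of lipid-laden macrophages, stood at 8.24 and 8.42, 5.92 and 6.22 and 6.09 and 5.98 in the same order and rose by 2.30 ± 0.19. Acp5, the tartrate-resistant phosphatase, stood at 7.91 and 8.27, 7.65 and 7.87 and 5.10 and 5.69 and rose by 2.70 ± 0.23. The untreated apoE-deficient arrays were near the treated ones for Acp5 and near B6 for Gpnmb. Of 20 macrophage markers tested, 11 were higher and none lower, with a median of 0.36, and their summed level was 14.38 and 14.39 in the treated arrays against 13.93 and 13.95 in the B6 arrays. Cd68 rose by 0.96 ± 0.11 and the complement component C1qa by 0.65 ± 0.06, while the receptors Csf1r (-0.01 ± 0.05) and Cd163 (-0.10 ± 0.12) did not pass, though Csf1r was called higher with hybridization controls set equal (0.23). Of 26 lysosomal and lipid-laden macrophage genes, 12 were higher (19 with hybridization controls and 8 with trimmed means set equal) and 1, Lpl, lower, among them the acid lipase Lipa (1.05 ± 0.08) and the cathepsin Ctsz (1.35 ± 0.07).

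Interferon-induced genes were higher. Their promoters were searched for the interferon stimulated response element, spelled GAAA, then 2 bases of any kind, then GAAA, on both strands of the 250 bases before the start of each gene. It lay in 12 of 22 interferon list genes with a promoter in the RefSeq table of GRCm38.p6, 54.5%, and in 3.46% of all 27025 gene symbols of that table. These stretches, chosen from members that rose, show the match in capitals on the strand of the gene, where TTTC reads the motif on the opposite strand.
Ifit3: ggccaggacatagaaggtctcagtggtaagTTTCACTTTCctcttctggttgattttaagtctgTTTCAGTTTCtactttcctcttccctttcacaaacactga
Ifit1: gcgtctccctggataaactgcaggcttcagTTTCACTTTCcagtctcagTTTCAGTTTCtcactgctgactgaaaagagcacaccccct
Gbp2: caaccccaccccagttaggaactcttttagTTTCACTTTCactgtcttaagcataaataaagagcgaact

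The stretches lie at chr19:34583343-34583446 for Ifit3, chr19:34640755-34640843 for Ifit1 and chr3:142620574-142620643 for Gbp2, all on the plus strand and upstream of the transcribed part. The match is a description of letters and says nothing of binding in these hearts. Ifit3, an antiviral protein, stood at 8.89 and 8.80 in the treated arrays and 7.72 and 7.70 in the B6 arrays, a rise of 1.14 ± 0.10 (adjusted p = 0.000158). Ifit1 was higher by 0.78 ± 0.14, a call lost without the first treated array (0.73), and the guanylate binding protein Gbp2 by 0.65 ± 0.10. Of 28 interferon genes tested, 13 were higher and 2 lower, with a median of 0.54, and the higher count was 8 without the second treated array. The other scalings called 14 to 26 higher, with 26 higher and none lower at equal hybridization controls and 18 and none at equal array medians. Among them Ifi27l2a rose by 1.28 ± 0.07, Gbp6 by 1.19 ± 0.08 and Oasl2 by 1.0 ± 0.12. The 2 lower members, the GTPase Iigp1 (-0.27) and the antiviral Rsad2 (-0.25), lost their calls without any 1 of several arrays and were at 0.03 and 0.08 with hybridization controls set equal. The element was present in 4 of 9 members with a promoter that rose, in Rsad2, and in 7 of 12 that did not pass.

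Complement, chemokine and antibody genes were higher too. Hp, the hemoglobin scavenger haptoglobin, stood at 8.74 and 8.81 in the treated arrays and 6.18 and 6.41 in the B6 arrays, and Serpina3n, an acute phase protease inhibitor, at 8.54 and 8.28 against 6.42 and 5.71. They rose by 2.48 ± 0.19 and 2.34 ± 0.23 (adjusted p = 4.83e-05 and 0.000243). Of 19 complement and acute phase genes tested, 12 were higher and none lower, with a median of 0.62, including the complement protease C1s1 (1.34 ± 0.10). Ccl8, a monocyte chemokine, stood at 9.22 and 9.25 against 6.57 and 6.71 and at 7.47 and 7.75 in untreated apoE-deficient arrays, a rise over B6 of 2.59 ± 0.13. Of 25 chemokine, cytokine and adhesion genes, 10 were higher and none lower, a count of 6 without either treated array or the first B6 array. The adhesion molecule Vcam1 rose by 0.92 ± 0.10, while the monocyte chemokine Ccl2 (-0.03 ± 0.27) and the cytokine Il1b (-0.01 ± 0.34) did not pass. Class I antigen presentation genes H2-D1 and H2-K1 were higher by 0.54 ± 0.05 and 0.40 ± 0.04, and the class II genes H2-Ab1 (0.03 ± 0.14) and Cd74 (0.02 ± 0.06) did not pass. Cd74 was called higher with hybridization controls set equal (0.27). Ighm, the antibody heavy chain, stood at 10.21 and 10.52 against 7.08 and 6.51 and rose by 3.57 ± 0.23, with the joining chain Jchain at 2.62 ± 0.26 and Igha at 2.77 ± 0.41. The B cell surface genes Cd79a (1.33 ± 0.39, adjusted p = 0.0504) and Ms4a1 (1.32 ± 0.58) did not pass, and of 10 B and plasma cell markers 3 were higher (6 with hybridization controls set equal) and 1, Xbp1, lower. Most of these markers were dim, and with the filter at the 60th percentile 3 were tested, 2 higher and 1 lower.

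Red cell genes were lower. Of 6 markers tested, 4 fell, with a summed level of 9.17 and 9.19 in the treated arrays against 10.45 and 10.46 in the B6 arrays. Alas2 stood at 6.79 and 6.21 against 9.11 and 9.21, with untreated apoE-deficient arrays between at 8.01 and 7.91. The iron importer Slc25a37 fell by 1.09 ± 0.13. Car2 (-0.68) and the 1 member called higher, the erythropoietin receptor Epor (1.11), lost their calls without any 1 of the 4 arrays (-0.76 to -0.60 and 0.93 to 1.29).

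Chaperones of the endoplasmic reticulum were lower. The element searched in their promoters was the endoplasmic reticulum stress response element, spelled CCAAT, then 9 bases of any kind, then CCACG, again on both strands of the 250 bases before the start. It lay in 8 of 19 genes of the list with a promoter, 42.1%, and in 0.13% of all gene symbols of the table. Stretches of 79 bases around it are shown for 3 members that fell, with the match in capitals on the strand of the gene.
Hspa5: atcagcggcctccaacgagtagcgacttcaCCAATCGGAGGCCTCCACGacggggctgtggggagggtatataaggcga
Pdia6: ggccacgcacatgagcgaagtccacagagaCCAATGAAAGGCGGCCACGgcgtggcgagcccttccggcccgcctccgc
Calr: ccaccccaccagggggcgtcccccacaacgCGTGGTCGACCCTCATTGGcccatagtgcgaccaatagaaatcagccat

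These lie at chr2:34771995-34772073 (plus strand), chr12:17266461-17266539 (plus strand) and chr8:84847045-84847123 (minus strand), and in Calr the element runs on the opposite strand. Hspa5, the chaperone BiP, stood at 11.60 and 11.62 in the treated arrays, 12.32 and 12.25 in the untreated apoE-deficient arrays and 12.21 and 12.20 in the B6 arrays, a fall of 0.59 ± 0.04 (adjusted p = 2.85e-05), although another of its probe sets was at -0.11. The disulfide isomerase Pdia6 fell by 0.66 ± 0.07, the secreted factor Manf by 0.64 ± 0.07 and the lectin chaperone Calr by 0.33 ± 0.04. Pdia6, Manf and Calr lost their calls when the spread was not allowed to depend on level. Hspa5, Pdia6 and Manf kept their calls without any 1 array and under every scaling, and Calr lost its call with hybridization controls set equal (-0.15). Of 22 genes tested, 8 were lower and none higher, with a median of -0.16. The falls were 5 without either B6 array, and with hybridization controls set equal the list held 4 lower and 8 higher, with a median of 0.16. All 3 members with a promoter that hold the element and fell are printed, and 5 of the 12 members that did not pass hold it as well.

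Cytosolic heat shock genes were lower in the main, with 13 of 25 lower, 4 higher and a median of -0.20. The falls were 6 without the second B6 array, 8 without the first treated array and 2 with hybridization controls set equal. Hsp90aa1, the inducible form of the chaperone, went against them, at 11.54 and 11.48 in the treated arrays and 10.78 and 10.68 in the B6 arrays, a rise of 0.78 ± 0.05. Hspa1a, the inducible chaperone, stood at 7.52 and 7.44 in the treated arrays and 7.46 and 7.55 in the B6 arrays but at 10.51 and 10.37 in the untreated apoE-deficient arrays. Treated and B6 arrays overlapped for Hspa1a (-0.03 ± 0.10), and the untreated apoE-deficient arrays stood apart, although it was called higher by 0.33 with hybridization controls set equal.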

How the data were processed

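Total RNA of heart tissue was hybridized to Affymetrix arrays as biotin-labelled cRNA, per the labels' protocols. The deposited table holds the authors' linear signal intensity for 45101 probe sets on 6 arrays, 2 in each of 3 groups. GCOS is named in the submitters' processing notes, and any further scaling is not given in the sources used here. Calls of detection and scanner files were not used here. Leaving out 64 control probe sets, 34945 probe sets had 1 gene symbol, 932 several and 9160 none in the platform annotation, and 34741 symbols were updated to RefSeq names by gene number.

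Signals were quantile-normalized, 11.1 was added as pseudocount, the 25th percentile of normalized signals, and log2 taken. Probe sets with a mean log2 level over all 6 arrays at or below 4.99, the 40th percentile, were left out. Group means of all 6 arrays were fitted with limma 3.58.1 in R 4.3.3 (lmFit, eBayes with an intensity trend, 3 residual and 5.97 prior degrees of freedom), with Benjamini-Hochberg adjustment and a threshold of 0.05. The fit was tested on simulated data. The brightest tested probe set with 1 symbol stood for a gene. Alternatives changed the scaling, pseudocount, filter, variance trend, arrays fitted, replicate block and probe sets per gene.

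The 60 gene lists and the comparison itself were chosen with earlier results of these data known. Named were the 15 largest rises and falls among passing genes whose groups do not overlap, up to 5 members of each list by p-value, members against a list where at most 5, and a panel. Other list members named were chosen after their values were seen. Promoters are RefSeq sequences of GRCm38.p6, and only bases before the start were searched.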

Additional observations from a re-analysis of the deposited data

How the results depend on the processing

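With 2 arrays a group, few residual degrees of freedom limit every test here, and small differences of bright genes depend on how arrays were scaled. The count of 4066 passing probe sets was 7604 with signals set equal on the hybridization controls and 626 without an intensity trend in the variance. It ranged from 2192 to 4120 when 1 array was left out, and it was 3431 to 4405 under the other alternatives. Of 202 genes named and passing, 119 kept their call without the trend, 175 with hybridization controls, 182 with array medians and 191 with trimmed means set equal, and 177 to 199 when 1 array was left out.

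Genes whose sign turned were as follows. With trimmed means set equal, Nppa was at -0.48, Pln at -0.55, Acadm at -0.43, Ryr2 at -0.27, Cycs at -0.23 and Cd36 at -0.22. With array medians set equal, Pln was at -0.38, Nppa at -0.30, Acadm at -0.25, Cycs at -0.046 and Cd36 at -0.041. With hybridization controls set equal, Pln was at -0.24, Nppa at -0.17 and Acadm at -0.11, while Hspa1a was at 0.33, Csf1r at 0.23, Agpat3 at 0.11, Serpinh1 at 0.095, Rsad2 at 0.082, Kcnk3 at 0.066, Pdk1 at 0.060, Kcnj5 at 0.059, Me1 at 0.052 and Iigp1 at 0.034. With the probe sets of a gene averaged, Pdk1 was at 0.21, Iigp1 at 0.044, Pln at -0.0031 and Slc2a4 at -0.20. Beyond the alternatives' own construction, the cause was not tested.

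Deviations of same-numbered treated and B6 arrays correlated at 0.033, so no strong shift shared by replicate number was seen. With so few arrays a group, this correlation cannot show whether the arrays were paired in some other way. Pairing therefore stays unknown. With the replicate number as a block 4103 probe sets passed, and 199 of the 202 genes kept their call.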

Other observations

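Several further groups differed between treated and B6 hearts. Fos, an immediate early transcription factor, stood at 9.08 and 9.03 in the treated arrays, 6.61 and 6.91 in the untreated apoE-deficient arrays and 7.93 and 7.79 in the B6 arrays, and was 1.20 ± 0.14 higher than in B6 hearts (adjusted p = 0.000509). Klf2, a transcription factor of endothelium under flow, stood at 9.95 and 9.96 against 10.69 and 10.69 and fell by 0.73 ± 0.05 (adjusted p = 3.03e-05). Of 25 immediate early genes tested, 6 were higher and 3 lower, against 14 and 3 with hybridization controls set equal. The rises were 2 without the first treated array, 3 without the second treated array or the first B6 array and 4 without the second B6 array. Nr1d1, the clock repressor, was the 1 of 17 circadian genes that passed after quantile normalization, lower by 0.99 ± 0.11 (adjusted p = 0.000451), and it was as low in the untreated apoE-deficient arrays (8.44 and 8.6) as in the treated ones (8.52 and 8.36). The other scalings called 1 to 6 circadian genes higher and 1 lower.

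Genes that respond to glucocorticoids were called in both directions, 5 of 23 higher and 9 lower, with a median of -0.25. With hybridization controls set equal the balance turned to 9 higher and 3 lower, with a median of 0.10, and with array medians it was 5 and 6. Errfi1, a brake on growth factor receptors, fell by 0.92 ± 0.09 and the metabolic transcription factor Klf15 by 0.78 ± 0.08, while the kinase Sgk1 rose by 0.64 ± 0.05. Proliferation genes were higher, 9 of 24 against 1 lower, with the mitotic kinase Cdk1 at 6.69 and 6.97 in the treated arrays and 5.21 and 5.31 in the B6 arrays, a rise of 1.57 ± 0.24. That count was 4 without the first treated array, 5 without the second and 6 without the first B6 array, and 17 with hybridization controls or 14 with array medians set equal. Among antioxidant genes 11 of 25 were higher and 4 lower, a count of 5 higher without the first treated array, 6 without the second B6 array, 7 without the second treated array or with trimmed means set equal and 16 with hybridization controls set equal. The extracellular dismutase Sod3 rose by 0.78 ± 0.08.

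Carbonic anhydrases and aquaporins held both the largest fall outside Apoe and a large rise. Car4, the membrane carbonic anhydrase of capillaries, stood at 10.00 and 9.78 in the treated arrays and 8.34 and 8.36 in the B6 arrays and rose by 1.54 ± 0.10 (adjusted p = 2.35e-05). The aquaglyceroporin of fat Aqp7 was at 1.40 ± 0.28, a call lost without either treated array (1.46 and 1.34) or the second B6 array (1.08). The water channel Aqp4 was at -0.99 ± 0.19, a call lost without the first treated array (-0.96) or the second B6 array (-0.93). Aqp4 also lost its call when its probe sets were averaged (-0.51).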
